A study of Mus musculus with 8 samples.

Results

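The genes described here encode the MCM replicative helicase and the factors that load and start it: Mcm2, Mcm3, Mcm4, Mcm5, Mcm6, Mcm7, Mcm10, Cdc6, Cdc45 and Gins2. All 10 were lower in CD38high than in CD38low CD11b+Gr1+ splenocytes of tumor-bearing mice, from 4.03-fold for Mcm2 to 2.01-fold for Cdc45. They were taken by symbol from the 498 probesets of the authors' deposited table of significant changes, where each had 1 row. Any further probesets of these genes among the 23332 on the arrays have no gene name here and could not be looked up. That table was selected on the CD38high against CD38low values of the same 8 arrays, by the authors' two-sample test and a 2-fold minimum. The differences between the fractions are therefore a description of genes chosen for them, and calls of a fit on these arrays, where counted, are no independent evidence for them.

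Gene expression was measured on Affymetrix arrays in splenocytes sorted by flow cytometry as positive for CD11b and Gr1, the surface markers used for mouse myeloid-derived suppressor cells, and then split by the level of CD38, an NAD-consuming surface enzyme. Every animal was a 12-month-old tumor-bearing mouse of genotype L2-Cre;p120f/f on a mixed C57BL/6x129 background, with esophageal tumors, so both fractions carry the same transgene and the same floxed p120 gene. The L2 promoter is known to drive Cre in squamous epithelium of the mouth and esophagus, and p120 is a catenin that binds cadherins. Each fraction had 4 arrays, from mice 1, 2 and 3 and from 1 pool of splenocytes of 3 mice that were combined before sorting. The labels do not say whether the mice of the pool were others than mice 1 to 3, so the pool may not be independent of them in the SDs and counts over 4 pairs. No tumor-free mice are among the groups. Values are on the log2 scale, on which a difference of 1 is a 2-fold change, and array medians lay between 6.92 and 7.10. Cd38 itself was higher in the CD38high array of every pair, by 1.64 to 2.62 on the log2 scale. Probesets for the sort antigens CD11b and Gr1 have no gene name here and were not analysed. Levels of different probesets are not set against each other, since probes differ in brightness.

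DNA replication starts at origins that are licensed in G1. The origin recognition complex, CDC6 and CDT1 load the ring-shaped hexamer of the MCM2, MCM3, MCM4, MCM5, MCM6 and MCM7 proteins onto DNA in an inactive form. At the start of S phase CDC45 and the GINS complex join the ring, with the help of MCM10, and turn it into the moving helicase of the replication fork. Genes for these proteins are classical targets of the E2F transcription factors and are expressed in cells that can divide. In the neutrophil lineage division is known to end during maturation, with the early granule-forming precursors dividing and the mature cells not.

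The promoters of the helicase genes are shown as a description. That the genes were lower together owes much to their choice from a table selected on this contrast, in which 374 of 498 rows were lower. As classical E2F targets, they were also picked from a class of genes for which E2F-type letters are known. RefSeq promoter windows on build GRCm38.p6, from 250 bases before to 50 bases after an annotated start, were found for 8 of the 10 genes (9 windows, of which Mcm7 has 2), and Mcm4 and Gins2 had no window. Letters of the E2F type (TTTGGCG or else TTTCGCG or else TTTCCCG or else TTTGCCG, on either strand) stood in 6 of the 8 genes. Of all 27025 genes with a window, 7.65% hold them. The share was 22.5% among the 289 other named genes lower in CD38high cells and 8.08% among the 99 named genes higher there. The pentamer CCAAT, read by the factor NF-Y, stood in 7 of the 8 genes, against 41.1% of all genes with a window. Its share was 49.5% among the other named lower genes and 53.5% among the named higher ones. TTTGAA, the letters of the CHR element of late cell cycle genes, stood in 2 of the 8, against 20.2% of all genes with a window. A match is a run of letters and not a shown binding site, and a window without a match is not shown to lack one. Counted per window, 6.70% of the 32851 windows hold E2F-type letters, and 6.14% of the 22995 windows within the range of GC content of the helicase gene windows (38.7% to 63.3%). The windows of 5 hexamer subunits follow 5′ to 3′, with E2F-type letters in capitals. Those of Mcm3 (chr1:20820263-20820562, minus strand), Mcm5 (chr8:75109259-75109558, plus strand), Mcm6 (chr1:128359656-128359955, minus strand) and Mcm7 (chr5:138171834-138172133, minus strand) hold such letters. The window of Mcm2 (chr6:88898731-88899030, minus strand) holds none, and neither does the second window of Mcm7, which is not printed.
Mcm2: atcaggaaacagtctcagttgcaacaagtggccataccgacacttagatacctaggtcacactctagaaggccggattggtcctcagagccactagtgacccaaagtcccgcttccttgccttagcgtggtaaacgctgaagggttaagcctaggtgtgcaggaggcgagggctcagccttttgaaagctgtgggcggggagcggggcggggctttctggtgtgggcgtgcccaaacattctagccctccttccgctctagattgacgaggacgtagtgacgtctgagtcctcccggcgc
Mcm3: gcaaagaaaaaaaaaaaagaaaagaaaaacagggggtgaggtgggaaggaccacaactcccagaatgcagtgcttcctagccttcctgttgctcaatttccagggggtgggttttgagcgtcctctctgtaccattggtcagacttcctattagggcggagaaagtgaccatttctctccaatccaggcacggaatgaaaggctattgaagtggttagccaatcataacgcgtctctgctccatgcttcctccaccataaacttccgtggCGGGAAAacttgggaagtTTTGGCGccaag
Mcm5: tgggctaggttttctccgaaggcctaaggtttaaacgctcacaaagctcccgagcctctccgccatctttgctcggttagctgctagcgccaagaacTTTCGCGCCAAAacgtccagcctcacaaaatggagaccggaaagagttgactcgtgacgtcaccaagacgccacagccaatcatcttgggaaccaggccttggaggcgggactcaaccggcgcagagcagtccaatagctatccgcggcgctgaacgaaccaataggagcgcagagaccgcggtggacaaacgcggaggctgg
Mcm6: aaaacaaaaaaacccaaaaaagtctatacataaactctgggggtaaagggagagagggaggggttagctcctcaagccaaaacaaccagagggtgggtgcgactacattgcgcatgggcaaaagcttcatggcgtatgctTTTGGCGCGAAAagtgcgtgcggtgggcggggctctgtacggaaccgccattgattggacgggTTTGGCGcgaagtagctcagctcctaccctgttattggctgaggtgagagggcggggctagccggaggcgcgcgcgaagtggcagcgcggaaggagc
Mcm7: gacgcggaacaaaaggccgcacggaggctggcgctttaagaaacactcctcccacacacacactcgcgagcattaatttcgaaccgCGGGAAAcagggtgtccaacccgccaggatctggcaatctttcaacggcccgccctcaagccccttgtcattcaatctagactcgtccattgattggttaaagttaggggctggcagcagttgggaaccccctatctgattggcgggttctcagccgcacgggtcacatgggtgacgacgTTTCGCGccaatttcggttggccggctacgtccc

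In Mcm6 the E2F-type letters stood at -110 to -104 and -105 to -99, overlapping on opposite strands, and again at -47 to -41, counted from the annotated start with no base 0. In Mcm5 an overlapping pair stood at -153 to -147 and -148 to -142. The matches of Mcm3 lay after the start, at 21 to 27 and 39 to 45, that of Mcm10 also after it, at 44 to 50, and that of Cdc6 before it, at -137 to -131. Mcm2 had 1 CCAAT and 1 TTTGAA, and Cdc45 had 2 of each. The window of Cdc6 had no CCAAT.

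**Figure D1:**
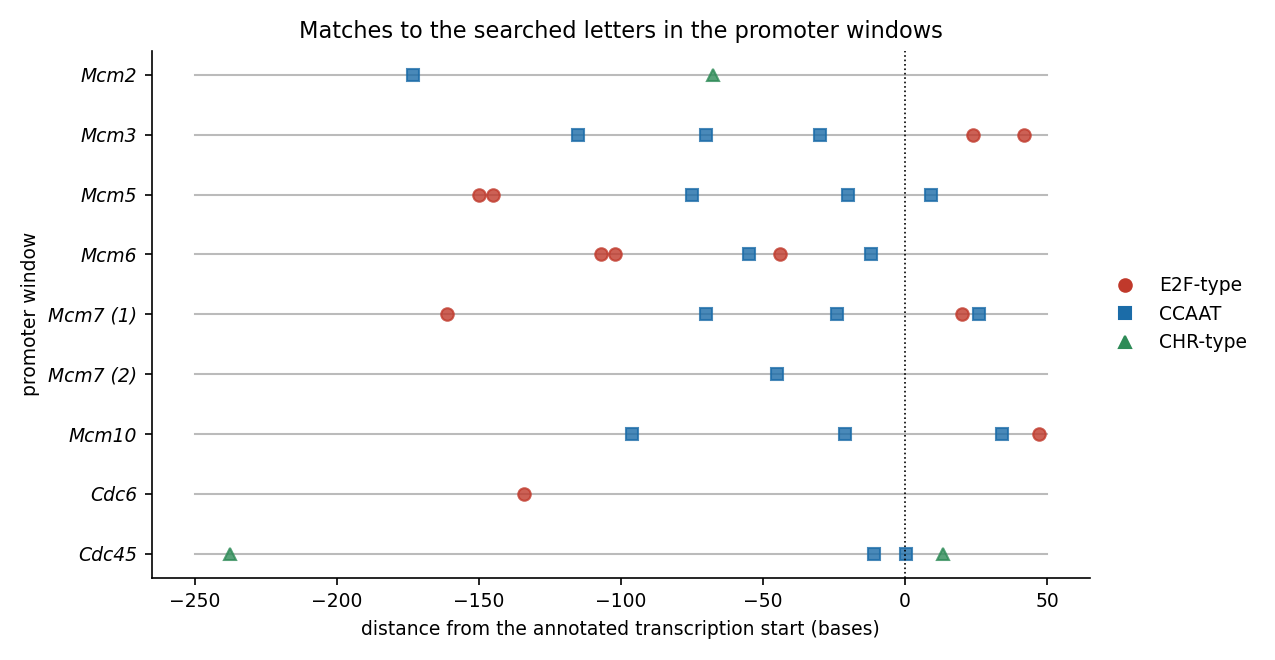
Matches to the searched letters in the 9 RefSeq promoter windows of 8 genes. The x axis is the distance in bases from the annotated transcription start (dotted line) and each grey line is a window; circles are E2F-type letters, squares CCAAT and triangles TTTGAA. E2F-type letters are present in Mcm3, Mcm5, Mcm6, Mcm10, Cdc6 and the first window of Mcm7, and absent from Mcm2 and Cdc45.

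The comparison of the fractions asked how transcripts of these myeloid cells differ with the level of CD38. In all 10 genes the 4 CD38high arrays lay below the 4 CD38low arrays, and the difference was negative in 4 of 4 pairs. Of all probesets, 9.37% were ordered this way, and 17% were lower in CD38high cells in 4 of 4 pairs. All 10 were also called in the unpaired limma fit over all probesets, where 6.88% were called as lower and 10.6% in either direction at an adjusted p under 0.05. Since the genes were chosen on this contrast, nothing is read from these counts. The median difference over the 10 genes was -1.51, beside 0.04 over all probesets and -1.24 over the 374 lower rows of the authors' deposited table. In these sorted bulk samples, a smaller share of replicating cells and less helicase RNA per cell cannot be told apart.

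Of the hexamer subunits, Mcm2 showed the largest difference. Its log2 values were 8.38, 8.40 and 8.76 in CD38high cells of mice 1, 2 and 3 and 8.59 in the CD38high pool, against 10.43, 10.48 and 10.81 in CD38low cells of the same mice and 10.46 in the CD38low pool. Mouse 3 was the highest in both fractions, and the nearest arrays of opposite fractions were 1.67 apart. The mean difference was -2.01 ± 0.10 (SD over 4 pairs), from 3.65-fold to 4.21-fold lower within a pair. Mcm6 read 8.63, 8.85, 9.09 and 8.74 in CD38high cells of mice 1, 2, 3 and the pool, against 10.68, 10.84, 10.90 and 10.71 in CD38low cells. It too was highest in mouse 3 on both sides, with a difference of -1.95 ± 0.10 (SD over 4 pairs, 3.87-fold). Mcm3, at 8.29, 8.54, 8.83 and 8.62 against 10.36, 10.45, 10.66 and 10.32, differed by -1.88 ± 0.15 (3.68-fold). In all of these subunits the gap between the fractions, at least 1.49, was wider than the span of the arrays within either fraction.

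The remaining subunits of the ring differed less. Mcm7 stood at 9.75, 10.17, 10.18 and 9.90 in CD38high cells of mice 1, 2, 3 and the pool and at 11.51, 11.83, 11.74 and 11.25 in CD38low cells, a difference of -1.58 ± 0.18 (SD over 4 pairs, 2.99-fold). Its CD38low pool was the lowest of the group, with mouse 1 next. Mcm4 stood at 9.26, 9.89, 9.63 and 9.71 against 11.04, 11.21, 11 and 10.93, a difference of -1.42 ± 0.25 (2.68-fold). Mcm4 had its lowest CD38high value in mouse 1, and mouse 1 also gave its largest pair difference, at -1.78. Mcm5 stood at 9.90, 10.15, 10.25 and 10.19 against 11.58, 11.66, 11.54 and 11.26, a difference of -1.39 ± 0.26 (2.61-fold). The difference of Mcm5 ranged from -1.07 in the pool to -1.68 in mouse 1.

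Within every pair, Mcm2, Mcm3 and Mcm6 each differed by more than any of Mcm4, Mcm5 and Mcm7, a split noticed in the values and given without a test. The mean over the first 3 was -1.95 and over the others -1.46. The gap between these means was -0.48 ± 0.13 (SD over 4 pairs), from -0.63 to -0.32. Probesets can differ in how far they compress a change, so unequal differences on an array need not be unequal changes in RNA. Whether the E2F-type letters printed above bear on the size of the differences was not tested, and Mcm4 had no window.

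Cdc6, the ATPase that brings the ring to the origin, was close to the most different subunits. It read 6.79, 7.07, 7.06 and 7.10 in CD38high cells of mice 1, 2, 3 and the pool, against 8.81, 9.23, 8.67 and 8.71 in CD38low cells. The difference was -1.85 ± 0.28 (SD over 4 pairs, 3.60-fold), and it was largest in mouse 2, at -2.16, where the CD38low value was the highest of its group.

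Of the factors that turn the loaded ring into a helicase, Mcm10 and Cdc45 had the smallest differences of the 10 genes, while Gins2 lay next to Mcm4. Gins2, a subunit of the GINS complex, read 8.06, 8.31, 8.22 and 8.56 in CD38high cells of mice 1, 2, 3 and the pool against 9.91, 9.61, 9.68 and 9.73 in CD38low cells, a difference of -1.44 ± 0.30 (SD over 4 pairs, 2.71-fold). Its pool was the highest CD38high array, unlike in the subunits of the ring. Mcm10 read 8.12, 8.45, 8.45 and 8.36 against 9.56, 9.58, 9.69 and 9.36, a difference of -1.20 ± 0.19 (2.30-fold). Cdc45 read 8.78, 9.02, 9.28 and 9 against 10, 10.19, 10.14 and 9.79, a difference of -1.01 ± 0.22 (2.01-fold). Its fractions came closest, with 0.51 between the CD38high array of mouse 3 and the CD38low pool. Cdc45 was the gene nearest to the 2-fold minimum of the authors' table, whose smallest lower row and the next probeset outside it, which has no name here, both round to 2.00-fold. In mouse 3 and in the pool the difference of Cdc45 was below 2-fold, at -0.87 and -0.79.

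**Figure D2:**
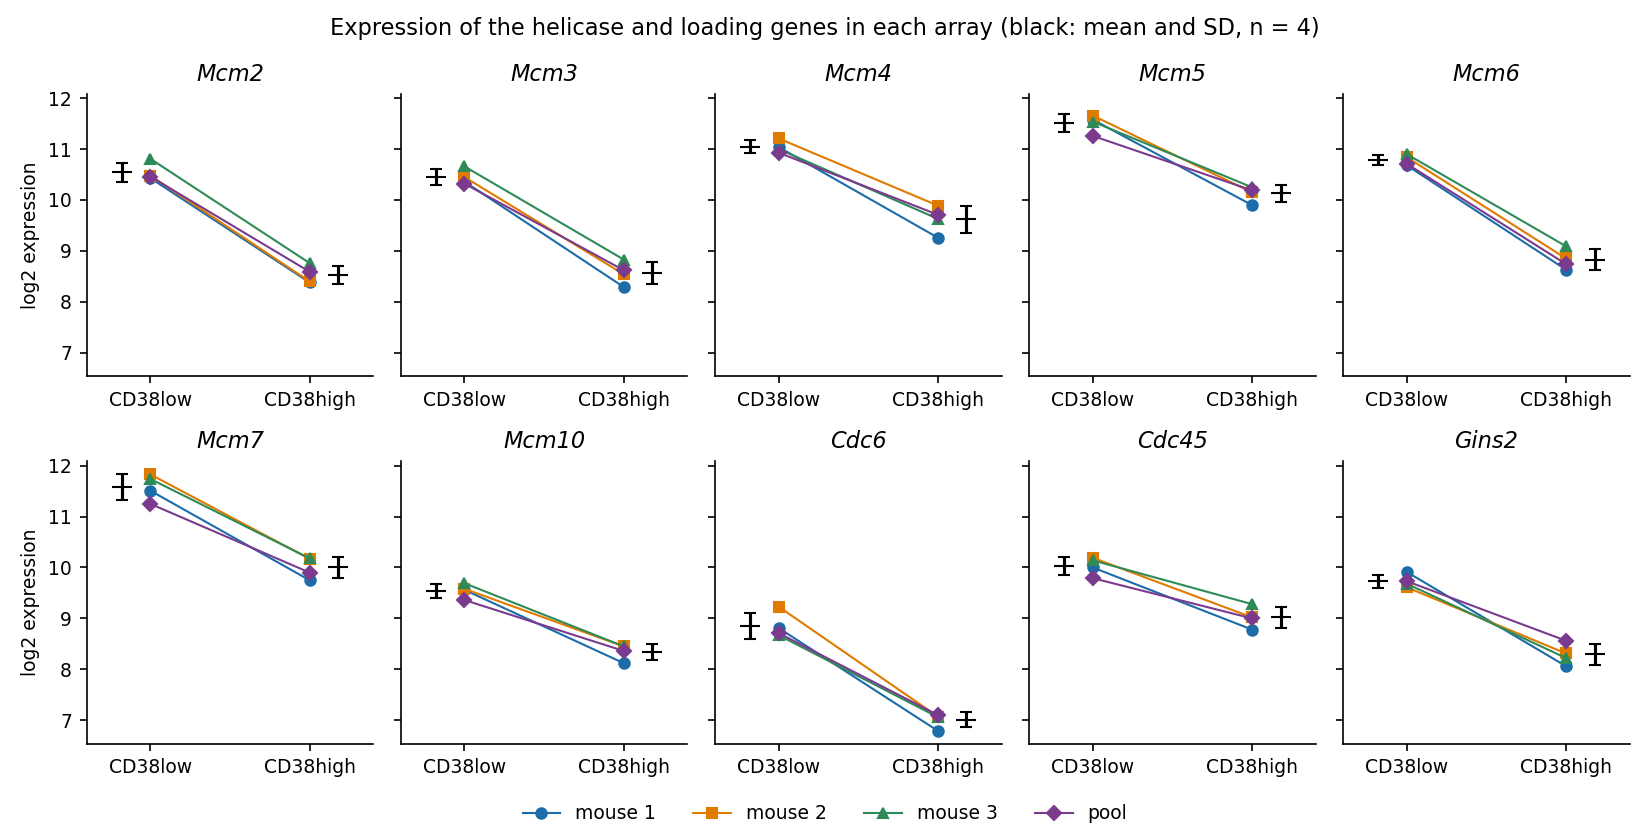
Log2 expression of the 10 genes in each array. Each coloured line joins the CD38low and the CD38high array of mouse 1, 2 or 3 or of the pool, and black marks beside them give the mean and SD of the 4 arrays. Every line descends towards CD38high, and in no gene do the fractions overlap.

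In the order of the differences, most neighbours could not be separated. The difference of Mcm2 minus that of Mcm6 was -0.06 ± 0.14 (SD over 4 pairs), with Mcm2 further down in 2 of 4 pairs, and that of Mcm6 minus Mcm3 was -0.07 ± 0.13. Mcm3 and Cdc6, Mcm7 and Gins2, Gins2 and Mcm4, and Mcm4 and Mcm5 were also within the SD over pairs. Cdc6 was further down than Mcm7 in 4 of 4 pairs (-0.27 ± 0.18) and Mcm5 further down than Mcm10 in 4 of 4 (-0.19 ± 0.15), while Mcm10 was further down than Cdc45 in 3 of 4 (-0.19 ± 0.17).

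**Figure D3:**
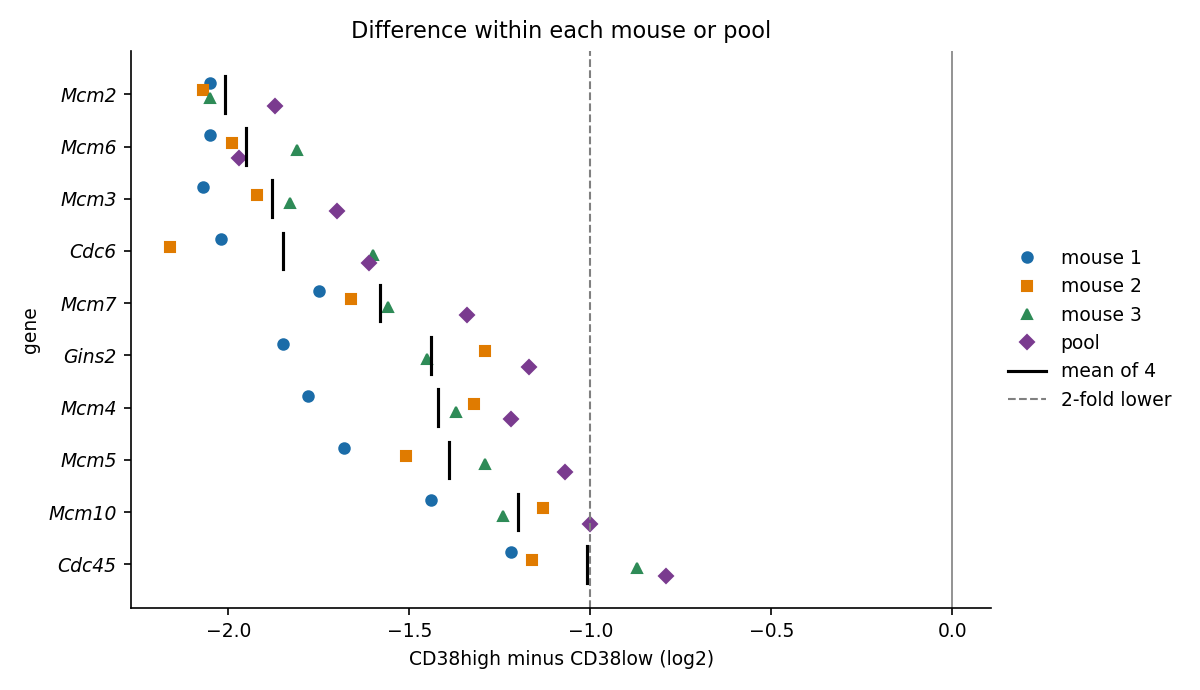
Difference between the CD38high and the CD38low array of each mouse or pool, on the log2 scale, for the 10 genes ordered by their mean (black bar). The dashed line marks a 2-fold lower value; the pool lies furthest to the right in 8 of the 10 genes, and 2 values of Cdc45 lie to the right of the line.

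The pairs differed in size in a like way across the genes. Mouse 1 gave the largest difference for 8 of the 10 genes and mouse 2 for Mcm2 and Cdc6, while the smallest came from the pool in 8 genes and from mouse 3 in Mcm6 and Cdc6. The median over the 10 genes was -1.82 in mouse 1, -1.58 in mouse 2, -1.51 in mouse 3 and -1.28 in the pool. Of the 364 other lower rows of the authors' table, mouse 1 was furthest down in 60.7% and the pool least down in 34.9%. Cd38 was ordered otherwise, with its largest difference in the pool (2.62) and 1.68 in mouse 1, 1.64 in mouse 2 and 2.05 in mouse 3. With 4 pairs no relation between the sort marker and the helicase genes was tested.

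Within the CD38high fraction the array of mouse 1 was the lowest for all 10 genes, with deviations of -0.36 to -0.15 from the mean of the fraction. That array was the lowest of its fraction for 20.9% of all probesets and for 49.7% of the 364 other lower rows. Its median deviation was -0.23 over the 10 genes, -0.16 over the other lower rows and -0.01 over all probesets. Mouse 3 was the highest CD38high array for 7 genes. Within the CD38low fraction the pool was the lowest for 6 genes and the highest for none, and it was the lowest for 49.7% of the other lower rows and 20.3% of all probesets. Without the CD38high array of mouse 1 the median difference between the fractions over the 10 genes was -1.43, and without both arrays of mouse 1 it was -1.41.

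**Figure D4:**
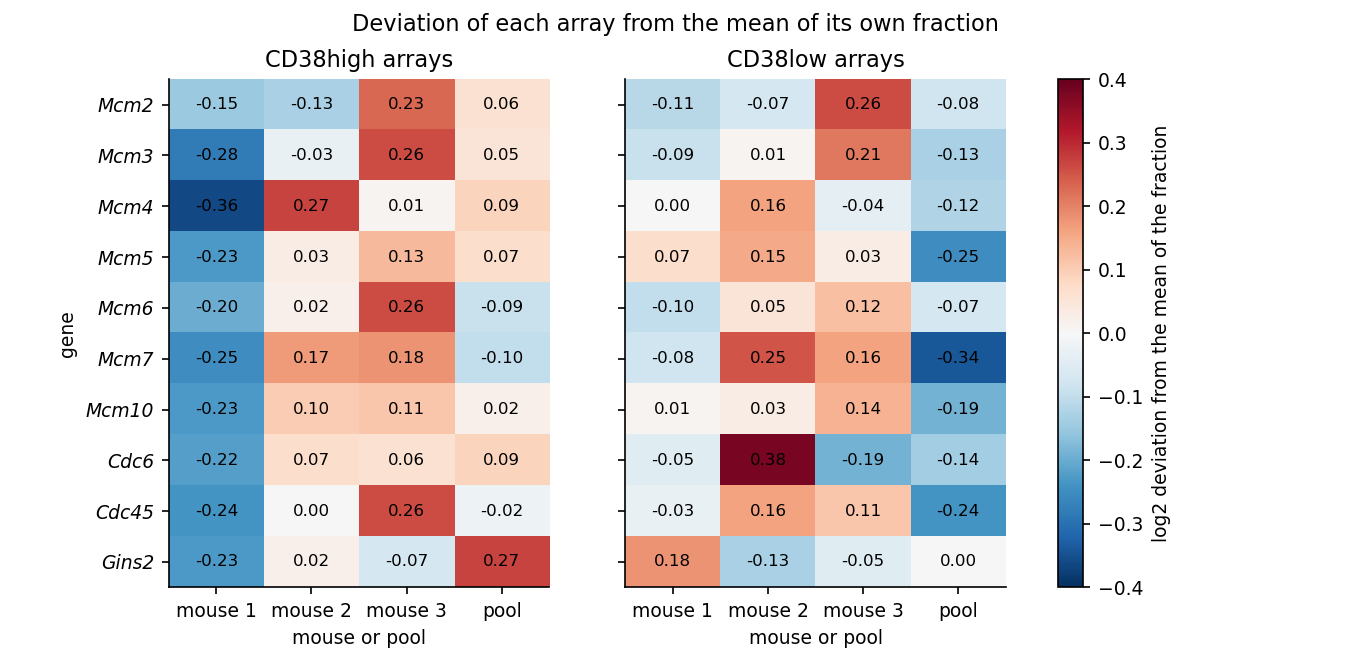
Deviation of each array from the mean of its own fraction, in log2 units, for the 10 genes (rows) and the mice or pool (columns). Red is above and blue below the mean; the column of mouse 1 is blue in all 10 genes among the CD38high arrays, and the pool is blue in most genes among the CD38low arrays.

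Further genes of origin licensing, helicase activation, the replication fork and entry into S phase were counted in lists chosen by function. Of the 74 genes on these 4 lists, 33 had a row in the authors' table, and all 33 were lower in CD38high cells. Of all 498 rows of that table, 374 were lower. Listed genes without a row have no gene name here and were not analysed. All 33 were called in the unpaired limma fit (6.88% of all probesets were called as lower), which their place in that table fixes. Of 13 other licensing genes 5 had a row, with a median difference of -1.23. They were Cdt1, the partner of CDC6 in loading the ring (-1.62 ± 0.21, SD over 4 pairs), the origin recognition subunits Orc1 (-1.37 ± 0.25), Orc6 (-1.23 ± 0.31) and Orc2 (-1.12 ± 0.20), and Gmnn, which encodes geminin, the inhibitor of CDT1 (-1.09 ± 0.23). Both the loader and its inhibitor were thus lower in the same fraction.

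Of 15 genes of helicase activation and fork protection, 8 had a row, with a median of -1.36. GINS subunits besides Gins2 were among them, Gins1 at -1.77 ± 0.25 and Gins3 at -1.35 ± 0.48 (SD over 4 pairs). Tipin, which stabilises stalled forks with TIMELESS, stood at -1.88 ± 0.16, Wdhd1, which ties the helicase to polymerase alpha, at -1.64 ± 0.24, Clspn, the checkpoint mediator claspin, at -1.38 ± 0.13, and Cdc7, the kinase that phosphorylates the loaded ring, at -1.25 ± 0.19. Of 24 genes of fork polymerases, clamp and single-strand binding, 13 had a row, with a median of -1.53. The largest differences were those of Pole2 of polymerase epsilon (-2.02 ± 0.44), Rfc3 of the clamp loader (-1.81 ± 0.44), Pola1 and Prim1 of the polymerase alpha and primase complex (-1.75 ± 0.27 and -1.72 ± 0.23), and Rpa2 and Rpa3 of the single-strand binding protein (-1.65 ± 0.12 and -1.61 ± 0.54).

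Of 22 genes of entry into S phase, 7 had a row, with a median of -1.64. Cdk6 (-1.88 ± 0.15) and Cdk4 (-1.64 ± 0.42) encode the G1 kinases, Ccne2 (-1.82 ± 0.47) and Ccne1 (-1.67 ± 0.20) the E cyclins, and Skp2 (-1.27 ± 0.32) a ubiquitin ligase subunit that removes CDK inhibitors. E2f1, which encodes a transcription factor of the E2F family, stood at -1.01 ± 0.36 (SD over 4 pairs). Its binding to the promoters shown was not tested. Of 28 genes of G2 and mitosis, such as Mki67, Top2a, Ccnb1 and Plk1, 0 had a row. Probesets outside the authors' table have no gene name here, so these 28 genes were not analysed and are not shown to be unchanged.

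**Figure D5:**
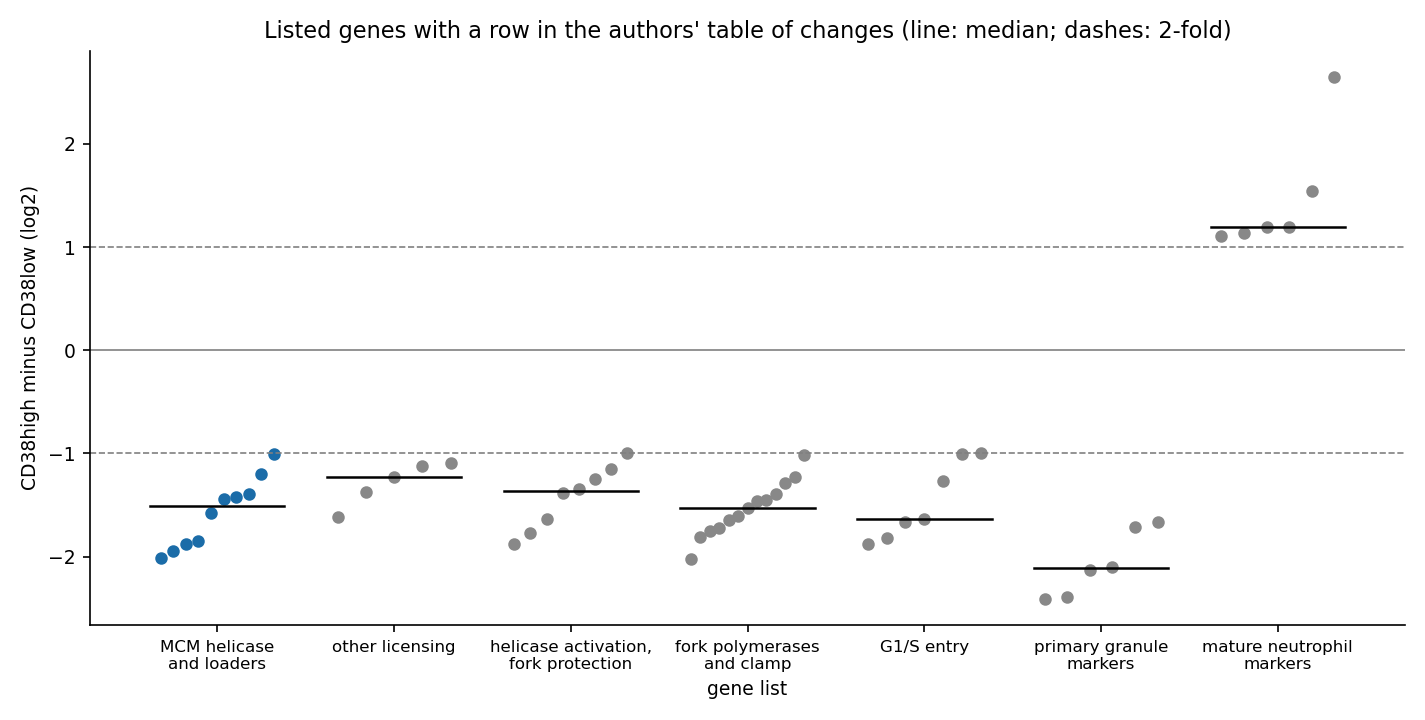
Difference between CD38high and CD38low means, on the log2 scale, of each listed gene with a row in the authors' table. Each point is a gene, black lines are medians and dashed lines mark 2-fold; all points of the 5 replication and cell cycle lists lie between -2.02 and -1, the primary granule markers between -2.41 and -1.67 and the mature neutrophil markers above 1.

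Among the named genes outside the set, the profile over the 8 arrays most like the mean profile of the 10 genes was that of Rad54l, a translocase of homologous recombination. The measure was the root mean square difference after each gene was centred on its own mean, and it was 0.063 for Rad54l, 0.092 for Ctps, a CTP synthase, 0.103 for Pa2g4, a growth-associated RNA-binding protein, 0.108 for Exo1, an exonuclease of mismatch repair, and 0.116 for Ccne1. Over all 474 other named probesets, those higher in CD38high cells included, its median was 0.301. The measure takes in the difference between the fractions, on which these rows were selected. The 10 genes themselves lay at 0.107 (Mcm5) to 0.288 (Cdc45) from their mean. Rad54l differed by -1.50 ± 0.20, Ctps by -1.52 ± 0.14, Pa2g4 by -1.56 ± 0.24 and Exo1 by -1.55 ± 0.22 (SD over 4 pairs).

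Of the marker genes with a row, those of primary granules were lower in CD38high cells and those of mature neutrophils higher. Of 14 primary granule markers, which early granulocyte precursors express, 6 had a row (Mpo, Elane, Prtn3, Ctsg, Ms4a3 and Nkg7, the last also a gene of cytotoxic lymphocytes) and 6 of 6 were lower in CD38high cells. Of all 498 rows of the authors' table, 374 were lower. The summed level of the 6 markers, on the log2 scale, was 13.30 to 13.83 in CD38high and 15.51 to 15.68 in CD38low arrays. Such sums are taken over unlogged values, so brighter probesets weigh more in them. The median difference of these 6 markers by pair was -2.16, -2.14 and -2.06 in mice 1, 2 and 3 and -2.07 in the pool. Single markers ranged over the pairs from as little as -2.14 to -2.01 (Prtn3) to as much as -2.16 to -1.39 (Elane). Of 20 mature neutrophil markers 6 had a row (Stfa3, Il1rn, Fpr1, Slfn1, Hdc and Clec4e) and 6 of 6 were higher. Their summed level was 14.71 to 14.94 in CD38high against 13.48 to 13.88 in CD38low arrays. The granule and mature markers without a row, S100a8, S100a9, Mmp8, Mmp9 and Cxcr2 among them, have no gene name here and were not analysed. The lists were chosen with earlier results of these data known, and no marker was checked for being specific to its stage. Since rows were selected on this contrast, nothing is read from these counts. Of 7 B cell markers 1 had a row, Cd79a, at 7.99 to 9.75 in CD38high and 6.45 to 7.33 in CD38low arrays. None of the 7 T cell, 7 NK cell, 8 erythroid, 8 monocyte and macrophage or 7 dendritic cell markers had a row, and these were not analysed. The part of these other cells and stages in the helicase differences was not tested.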

How the data were processed

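RNA of 8 sorted samples was hybridised to Affymetrix arrays. The authors deposited log2 expression values, and the submitters' processing notes name the Affymetrix Power Tools, RMA, PLIER and build mm9, without saying which gave the values. Their normalization was used unchanged. Gene names come from the authors' table of 498 changed probesets, each matched by its 8 values (5 decimals) to 1 of 23332 rows of the full table, which holds no names. It names 484 probesets, 476 of them checked by RefSeq accession. Members, gene lists and promoter letters were chosen with earlier results of these data known.

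The named genes are the 10 members, the 5 genes nearest in profile and up to 6 per list with the largest difference. Groups were compared unpaired, as the series design states, with limma 3.58.1 in R 4.3.3, adjusted by Benjamini-Hochberg over all probesets. The fit was tried on simulated data with independent noise in every array and no shared effect of a mouse or pool. That trial therefore does not bear on the pairing. Both fractions of a mouse or pool share animals, and their deviations correlated at 0.345 to 0.675 (other arrays of opposite fractions -0.577 to 0.1), so a replicate block was an alternative. Further alternatives were left-out pairs or arrays, quantile or median scaling, a filter on the dimmest 25% of probesets, trended robust eBayes and the methods' t-test without its 10000 permutations. Arrays per group (4) limit the precision. Python 3.11.15, pandas 2.3.3 and matplotlib 3.10.9 served for all other steps.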

Additional observations from a re-analysis of the deposited data

Results flagged for a closer look

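For each gene and fraction, the gap between the most extreme array and its nearest neighbour was divided by the range of the 4 arrays and set against the critical value of Dixon's test. It was exceeded in 2 of the 20 sets of 4 arrays, where chance gives about 1. For Mcm2, mouse 3 stood apart among the CD38low arrays, with 10.81 where the others had 10.43 to 10.48. For Cdc6, mouse 1 stood apart among the CD38high arrays, with 6.79 where the others had 7.06 to 7.10. In both cases the array lies further from the opposite fraction than the rest of its own.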

How the results depend on the processing

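Under the 22 alternatives run on single genes, the 10 helicase genes kept their direction and an adjusted p under 0.05 in 220 of 220 values; they were selected on these arrays, so neither the direction nor the calls are independent evidence. Left-out arrays and other scaling moved the differences by little: Mcm2 ranged from -2.08 to -1.92, Cdc6 from -1.93 to -1.72 and Cdc45 from -1.10 to -0.93. The median over the 10 genes was -1.60 to -1.41 when a pair or an array was left out. A replicate block (fixed or random), trended robust eBayes and the filter on dim probesets cannot change a difference of group means in this balanced design. Their median of -1.51 is that of the main fit by construction. Likewise, leaving out a pair gives the same differences with the block as without it. The paired fit changed no call of these genes. What moved was the background. The 2479 differing probesets became 3929 with the replicate block and 3840 with a random replicate block (2303 and 2326 lower). The methods' t-test, without its permutations, gave 351 at its own threshold (273 lower), against 498 rows (374 lower) in the authors' table. After Benjamini-Hochberg it gave 1598 (1053 lower). Without the block, leaving out a pair or an array gave 540 to 2436 differing probesets and 427 to 1483 lower ones, the fewest without mouse 1 (540, 427 lower), and with it 1942 to 2520 and 1199 to 1597. Counts were also over 1.5 times smaller without mouse 3 (1334, 960 lower), the pool (1125, 752 lower), the CD38high array of mouse 1 (1188, 832 lower) or of the pool (1460, 974 lower), or the CD38low array of mouse 1 (1591). Fewer arrays enter these fits. The fits without a pair hold equally many arrays, yet without the block they ranged from 540 (without mouse 1) to 1901 (without mouse 2) differing probesets. The cause of this spread was not tested.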
